A study of Mus musculus with 6 samples.

Results

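The Polycomb repressive complex subunits described here are 10 genes, *Ezh1*, *Ezh2*, *Suz12*, *Eed*, *Ring1*, *Rnf2*, *Bmi1*, *Cbx2*, *Cbx7* and *Cbx8*, chosen by gene name from the 53378 genes of the expression table that had a value in every library. All 10 were found, each in 1 row, and all 10 passed the filter on low values that left 14840 genes for testing. RNA-seq libraries came from neural stem cells (NSCs) of the embryonic mouse telencephalic cortex at E14.5, grown as neurospheres, and every library came from cells homozygous for the floxed *Tbl1xr1* allele. In the 3 control libraries (control 1, 1_1 and 2) the cells had received a virus for GFP only, and in the other 3 a virus for Cre, the recombinase that removes the floxed exon of *Tbl1xr1*, a subunit of the NCoR/SMRT corepressor complex. Both viruses were lentiviral and carried GFP, by which the published methods say that infected cells were sorted, so the control cells share the allele, the infection and the sort but have no recombinase. The labels do not say how many embryos or cultures the libraries stand for, nor whether libraries numbered 1 and 1_1, or 2 and 2_2, share one. The p-values therefore measure the spread between these libraries only, which may be technical.

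Recovered reads on genes ran from 7510615 to 11161497 in the control libraries (median 7762821) and from 11893230 to 14828100 in the libraries labelled Cre (median 12210170), named here Cre 2, Cre 2_2 and Cre 3. *Tbl1xr1* itself stood at normalized counts of 2522, 2190 and 2721 in control 1, 1_1 and 2 and of 3774, 3463 and 2905 in Cre 2, 2_2 and 3. Its mRNA was thus not lower in any library labelled Cre than in any control library, with a log2 fold change of 0.45 (SE 0.14, adjusted p = 0.0600). It passed an adjusted p of 0.05, as higher, in 2 of 16 other ways of processing, DESeq2 on the recovered reads and without Cre 3. The gene-level values do not check the label. The paper reports, from RT-qPCR and Western blot, that *Tbl1xr1* mRNA and protein were absent in neural stem cells given Cre. Differences are given as log2 fold changes (Cre minus control) on log2(normalized count + 1), with limma's standard error, its 95% interval and the Benjamini-Hochberg adjusted p over all 14840 genes. At an adjusted p under 0.05, 9.96% of all tested genes passed, 4.74% as higher and 5.22% as lower in the libraries labelled Cre. The normalized counts of 10 neural stem cell markers summed to 39756 to 43798 in control cells and to 40663 to 42587 with Cre. *Prom1* of this list was low, with 5 to 24 reads per library. The log2 fold changes were above 0 for 6 of the 10 and below 0 for 4, so similar sums do not show that each marker stayed the same. All of the microglia markers but *Csf1r* and all of the endothelial markers but *Kdr*, and all mesenchymal markers, were too low to be tested.

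Polycomb proteins keep genes silent by marking their chromatin. Polycomb repressive complex 2 (PRC2) methylates histone H3 on lysine 27 through EZH2 or its paralog EZH1, which act only when bound to SUZ12 and EED. Polycomb repressive complex 1 (PRC1) places ubiquitin on histone H2A through RING1 or RNF2 paired with a PCGF protein such as BMI1, and in its canonical form a CBX protein binds the PRC2 mark. In the embryonic cortex these complexes are known for keeping genes of other lineages silent and for timing the switch of progenitors from making neurons to making glia. In cultured neural stem cells BMI1 and EZH2 are known for holding down *Cdkn2a*, the locus of the cell cycle inhibitors p16INK4a and p19ARF.

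None of the 10 subunit genes differed between the groups at an adjusted p under 0.05. The adjusted p-values ran from 0.311 (*Bmi1*) to 0.952 (*Cbx7*) with limma, and the count was also 0 with edgeR and with DESeq2 on the recovered reads. At an unadjusted p under 0.05, which 25.5% of all tested genes met, the count was 0 of 10 as well, with a lowest p of 0.111. The log2 fold changes lay between -0.38 (*Cbx2*) and 0.27 (*Cbx8*), 7 below and 3 above 0, with a median of -0.17 beside -0.0010 over all tested genes. A value outside the threshold does not show that a gene stayed the same, and the intervals give what the data allow. The 95% intervals of all 10 stayed within 1 log2 unit of 0, as for 69.1% of all tested genes, and those of *Ezh2*, *Suz12*, *Eed* and *Rnf2* stayed within 0.5, as for 21.4%. The libraries of the 2 groups did not overlap for 1 member of 10, *Rnf2*, where 30.3% of all tested genes had groups that did not overlap.

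**Figure D1:**
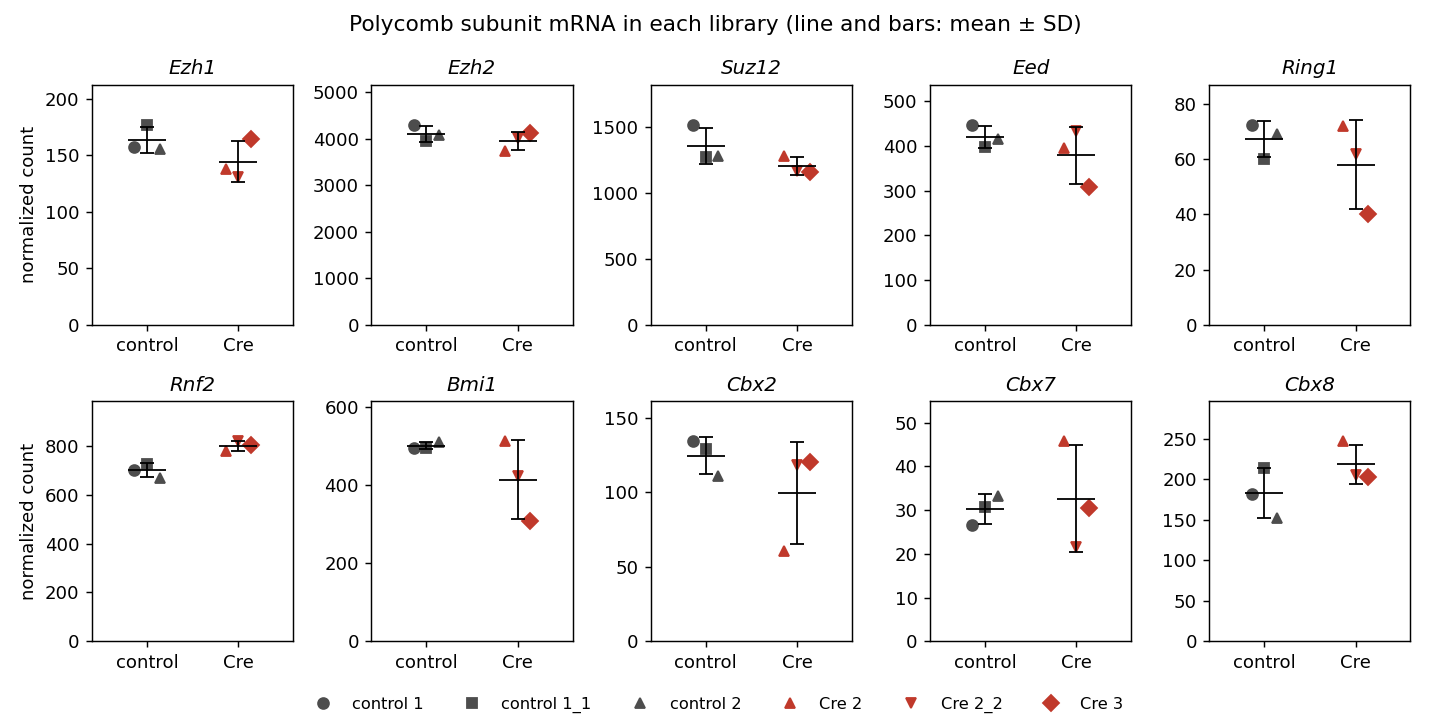
Normalized count (vertical axis, from 0, scaled per gene) of the 10 subunit genes in the 3 control and the 3 Cre-labelled libraries. Each symbol is 1 library, the line is the group mean and the bars are the SD (n = 3); the groups overlap for every gene but *Rnf2*, and the Cre points of *Bmi1*, *Ring1* and *Cbx2* are more spread than the control points.

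Among the catalytic subunits of PRC2, *Ezh2* was the most abundant member. It stood at normalized counts of 4294, 3945 and 4072 in control 1, 1_1 and 2 and of 3741, 4009 and 4112 in Cre 2, 2_2 and 3. Its Cre libraries lay on both sides of the lowest control library, and only Cre 2 lay below all of them. The difference for *Ezh2* was -0.05 on the log2 scale (SE 0.11, 95% interval -0.30 to 0.19, adjusted p = 0.807), and it moved only between -0.08 and -0.01 over the 16 other ways of processing. *Ezh1*, the paralog that is known for a weaker methyltransferase activity and for its place in cells that do not divide, had 157.8, 177.0 and 156.0 normalized counts in the control libraries and 137.8, 130.9 and 164.7 in Cre 2, 2_2 and 3. Cre 3 lay among the control libraries while the other two lay below them, and the log2 fold change was -0.18 (SE 0.17, interval -0.56 to 0.19, adjusted p = 0.551).

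*Suz12*, the scaffold on which PRC2 assembles, stood at 1519, 1278 and 1283 normalized counts in control 1, 1_1 and 2 and at 1284, 1171 and 1161 in Cre 2, 2_2 and 3. The groups overlapped through Cre 2, and control 1 was the highest of the 6 libraries. Its log2 fold change was -0.17 (SE 0.12, interval -0.43 to 0.09, adjusted p = 0.414), and it was -0.09 without control 1. *Eed*, which binds the trimethylated lysine and stimulates the enzyme, had 446.9, 396.4 and 416.1 normalized counts in control and 396.1, 433.0 and 308.0 in Cre 2, 2_2 and 3. Only Cre 3 was clearly below the control range. For *Eed* the log2 fold change was -0.16 (SE 0.15, interval -0.50 to 0.18, adjusted p = 0.567) with all libraries and -0.02 without Cre 3.

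Of the E3 ubiquitin ligase pair of PRC1, *Rnf2* (the gene of RING1B) was the single member whose groups separated. It had 702.0, 727.0 and 669.5 normalized counts in control 1, 1_1 and 2 and 779.1, 817.8 and 804.0 in Cre 2, 2_2 and 3. Every Cre library was above every control library, by a small margin between the nearest pair. The log2 fold change of *Rnf2* was 0.19 (SE 0.11, interval -0.06 to 0.44, adjusted p = 0.318), a 1.14-fold difference, and it lay between 0.16 and 0.22 over the 16 alternatives, none of which brought it past the threshold. An exact two-sided permutation test of the 6 values gave p = 0.1, the smallest that 3 libraries against 3 can give.

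*Ring1*, its paralog, was far less abundant, with 72.5, 60.0 and 69.3 normalized counts in control and 72.0, 62.0 and 40.3 in Cre 2, 2_2 and 3. Cre 2 and Cre 2_2 lay inside the control range and Cre 3 far below it. Its log2 fold change was -0.24 (SE 0.26, interval -0.82 to 0.33, adjusted p = 0.613) with all libraries and -0.01 without Cre 3. *Bmi1*, the PCGF subunit best known for the self-renewal of neural stem cells, showed the same order of the Cre libraries. Its control values of 494.6, 495.9 and 510.8 were close to each other, while Cre 2, 2_2 and 3 had 511.8, 422.7 and 308.0. Cre 2 matched the highest control library, and Cre 2_2 and Cre 3 lay below the control range. For *Bmi1* the log2 fold change was -0.30 (SE 0.18, interval -0.69 to 0.08, adjusted p = 0.311). It was -0.11 without Cre 3 and -0.47 without Cre 2, where the adjusted p was 0.0560, the lowest that any member reached in any of the 16 alternatives.

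The CBX genes supply the chromodomain of canonical PRC1, and 3 of them are members. *Cbx2* had 134.0, 128.7 and 110.7 normalized counts in control 1, 1_1 and 2 and 60.3, 117.9 and 120.0 in Cre 2, 2_2 and 3. Here Cre 2 stood apart, and the other Cre libraries lay inside the control range. The log2 fold change of -0.38 (SE 0.26, interval -0.96 to 0.20, adjusted p = 0.403) was -0.06 without Cre 2, whereas without Cre 3 it was -0.55. *Cbx8*, which lies 5027 bases from *Cbx2* on mouse chromosome 11 (GRCm38.p6), had 181.7, 213.6 and 152.0 normalized counts in control and 246.5, 204.9 and 203.3 in Cre 2, 2_2 and 3. Cre 2, the library with the lowest *Cbx2* value, was the one with the highest *Cbx8* value. The log2 fold change of *Cbx8* was 0.27 (SE 0.18, interval -0.12 to 0.65, adjusted p = 0.384), positive in all 16 alternatives. *Cbx7*, the lowest member with 21 to 66 reads per library, had 26.6, 30.7 and 33.3 normalized counts in control and 45.7, 21.5 and 30.4 in the Cre libraries. Cre 2 and Cre 2_2 were the highest and the lowest of the 6, and the log2 fold change of 0.05 (SE 0.33, interval -0.69 to 0.78, adjusted p = 0.952) took no stable sign, with -0.22 without Cre 2 and 0.30 without Cre 2_2.

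The spread between libraries was larger in the Cre group for 7 of the 10 members, beside 64.7% of all tested genes. It was most uneven for *Bmi1*, whose highest control library was 1.03 times the lowest while the highest Cre library was 1.66 times the lowest. For *Ring1* these ratios were 1.21 and 1.79 and for *Cbx2* 1.21 and 1.99, and the highest Cre library of *Cbx7* was 2.12 times the lowest. Cre 3 was the lowest of the Cre libraries for 5 members (*Suz12*, *Eed*, *Bmi1*, *Ring1* and *Cbx8*) and the lowest of all 6 for 4 of them, beside 35.6% and 20.9% of all tested genes. *Rnf2* was the steadiest member in the Cre group, with a highest to lowest ratio of 1.05.

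Levels of different genes were compared as normalized counts per kilobase of exon, since a longer mRNA gives more reads. In control, *Ezh2* led with 662 ± 28.5 (SD, n = 3), followed by *Suz12* (275 ± 27.8), *Rnf2* (231 ± 9.5) and *Eed* (189 ± 11.5). *Bmi1* reached 126 ± 2.3, and the remaining members were lower, with *Cbx8* at 49.6 ± 8.4, *Cbx2* at 29.2 ± 2.9, *Ezh1* at 22.0 ± 1.6, *Ring1* at 20.7 ± 2.0 and *Cbx7* at 7.97 ± 0.89. *Ezh2*, *Suz12* and *Eed* of PRC2 were thus above *Bmi1*, *Ring1*, *Cbx2*, *Cbx7* and *Cbx8* of PRC1, but *Rnf2* of PRC1 was above *Eed* in every library. Only *Ezh1* and *Ring1* were neighbours in this order whose control libraries overlapped. In the Cre-labelled libraries, *Rnf2* (264 ± 6.5) stood above *Suz12* (244 ± 13.8), but these ranges overlapped, as did those of *Cbx2* and *Ezh1* and of *Ezh1* and *Ring1*. With the length of the longest transcript in place of all exons, *Ezh1* (38.9 in control) moved above *Cbx2* (32.7) and the order of the other members was kept.

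**Figure D2:**
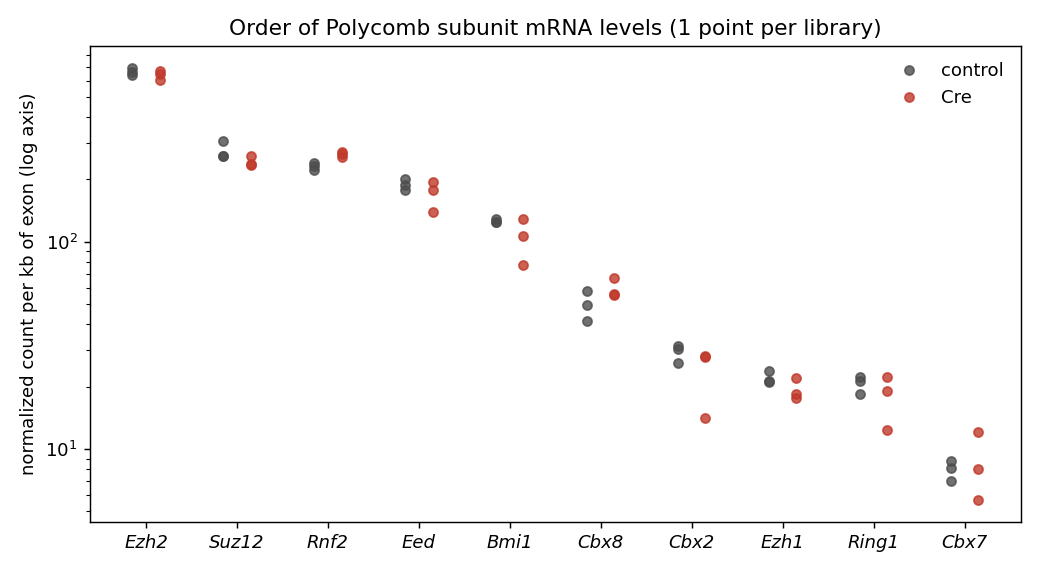
Normalized count per kilobase of exon (vertical log axis) of each member in every library, with genes ordered by the control mean, from *Ezh2* at 662 to *Cbx7* at 7.97. Each point is 1 library; control and Cre-labelled points of a gene lie close together beside the distances between most genes.

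The balance within paralog pairs was compared per library as a ratio of levels per kilobase, with 6 such quantities computed, some of them chosen after their values were seen, of which 4 are given. *Ezh2* was 30.2 ± 3.1 times *Ezh1* in control and 33.1 ± 3.4 times in the Cre-labelled libraries (exact two-sided permutation test, p = 0.5, 0.5 adjusted over the 6). The size of this ratio depends on the length used. With the longest transcript the control means were 1547 for *Ezh2* and 38.9 for *Ezh1*, beside 662 and 22.0 with all exons. The ratio of *Rnf2* to *Ring1* was 10.4, 13.0 and 10.3 in control 1, 1_1 and 2 and 11.6, 14.1 and 21.4 in Cre 2, 2_2 and 3 (exact p = 0.2, adjusted p = 0.24), with Cre 3 apart. *Bmi1* made up 35.9 ± 1.6% of the summed level of the 6 PCGF genes in control and 31.4 ± 3.7% in the Cre-labelled libraries (exact p = 0.2, adjusted p = 0.24). *Cbx2*, *Cbx7* and *Cbx8* together made up 16.9%, 20.2% and 14.7% of the summed level of these genes and *Cbx6* in control 1, 1_1 and 2 and 28.5%, 23.5% and 21.1% in Cre 2, 2_2 and 3. Every Cre value was above every control value (exact p = 0.1, the smallest possible, adjusted p = 0.2). Most of the sum was *Cbx6*, which was lower in the Cre libraries (log2 fold change -0.55). A lower *Cbx6* value raises this share by itself, so the share is not a separate result on *Cbx2*, *Cbx7* and *Cbx8*.

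The rest of the Polycomb machinery was read from 6 lists with 41 further genes, of which 39 passed the filter. Of these, 0 were higher and 2 lower at an adjusted p under 0.05, or 5.13% beside 9.96% of all tested genes, and 10 met an unadjusted p under 0.05, which 25.5% of all tested genes did. Their median log2 fold change was -0.05, with 18 values above and 21 below 0. The libraries did not overlap for 7 genes that were lower and 7 that were higher in the Cre group, beside 30.3% of all tested genes that did not overlap. In the list of further PRC2 core genes, the histone chaperones *Rbbp4* and *Rbbp7*, none of the 2 passed. *Rbbp4*, the more abundant, had normalized counts of 2846, 2244 and 2773 in control and 3137, 2583 and 2348 in the Cre libraries, with a log2 fold change of 0.03 (SE 0.14, interval -0.28 to 0.35, adjusted p = 0.910). *Rbbp7* missed the threshold narrowly, at -0.45 (adjusted p = 0.0523), and passed it in 4 of the 16 alternatives, DESeq2 among them.

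None of the 8 accessory subunits of PRC2, which steer the complex to chromatin, passed the threshold, and their median was 0.15. *Lcorl*, the most abundant of them, had normalized counts of 1321, 1309 and 1134 in control and 1553, 1581 and 1722 in the Cre libraries, which do not overlap. Its log2 fold change was 0.37 (SE 0.12, adjusted p = 0.0699), and it passed in 1 of the 16 alternatives, without Cre 2. *Phf1* (0.56, adjusted p = 0.207) and *Lcor* (0.47, adjusted p = 0.133) had larger values with more spread, and *Lcor* passed without Cre 3 (adjusted p = 0.0167). *Jarid2* (0.22), *Mtf2* (-0.13), *Phf19* (-0.25) and *Aebp2* (0.08) lay closer to 0, with adjusted p-values from 0.243 to 0.769. Among the other PCGF genes, the partners of RING proteins in the various forms of PRC1, 0 of 5 passed. *Pcgf3*, the most abundant, had 964.5, 808.9 and 882.9 normalized counts in control and 1099, 1180 and 1103 in the Cre libraries, with a log2 fold change of 0.35 (SE 0.12, adjusted p = 0.0866).

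Of the 7 further canonical PRC1 genes, *Cbx6* was the only one past the threshold. It had 2729, 2400 and 2775 normalized counts in control 1, 1_1 and 2 and 1475, 1830 and 2147 in Cre 2, 2_2 and 3, so that every Cre library was below every control library. *Cbx6* fell by 0.55 on the log2 scale (SE 0.15, interval -0.87 to -0.23, adjusted p = 0.0367). Its adjusted p ranged from 0.0112 to 0.153 over the 16 alternatives and stayed past the threshold in 10, but not without any 1 of the control libraries or Cre 2_2, nor with like-numbered libraries averaged. *Cbx6* shares 1175 exon bases with *Npcd* on the same strand, so some reads could be given to either gene, and *Npcd* fell by 0.92 (adjusted p = 0.0319). The polyhomeotic genes *Phc1* (-0.05), *Phc2* (-0.13) and *Phc3* (-0.0035) had adjusted p-values from 0.797 to 0.993.

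Of the variant PRC1 subunits 12 of 13 were tested and 1 passed, *L3mbtl2*, which belongs to the PRC1 form built on PCGF6 and E2F6. *L3mbtl2* had 411.1, 449.1 and 421.4 normalized counts in control and 298.5, 315.9 and 298.2 in Cre 2, 2_2 and 3, and the groups were well separated. It fell by 0.49 on the log2 scale (SE 0.13, interval -0.77 to -0.21, adjusted p = 0.0360), with 10 of the 16 alternatives past the threshold and adjusted p-values from 0.0314 to 0.126. It was not past it without Cre 2_2, Cre 3 or any 1 control library, nor with the control libraries 1 and 1_1 averaged. Its exons overlap genes on the other strand, and the kit did not keep the strand. *E2f6*, a member of the same complex, had a value of 0.30 (adjusted p = 0.159), *Auts2* 0.42 (adjusted p = 0.0935) and *Yaf2* -0.40 (adjusted p = 0.119). *Auts2* passed in 2 of the 16 alternatives, without Cre 2 and with Cre 2 and 2_2 averaged, and *E2f6* and *Yaf2* passed in none. *Rybp*, a paralog of *Yaf2*, had at most 4 reads in any library and was not tested, while *Rybp-ps*, a sequence copy of it by name, had 12 to 49, so that how reads were split between the copies is uncertain. Among the genes listed as lysine 27 demethylases or subunits of the Polycomb deubiquitinase, 5 of 6 were tested and 0 passed. *Kdm6a* (0.24) and *Kdm6b* (0.25) demethylate lysine 27, and *Bap1* (-0.06) is the deubiquitinase. *Asxl2*, the most abundant of the 6, had a log2 fold change of -0.12 (SE 0.12, interval -0.39 to 0.16, adjusted p = 0.607).

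**Figure D3:**
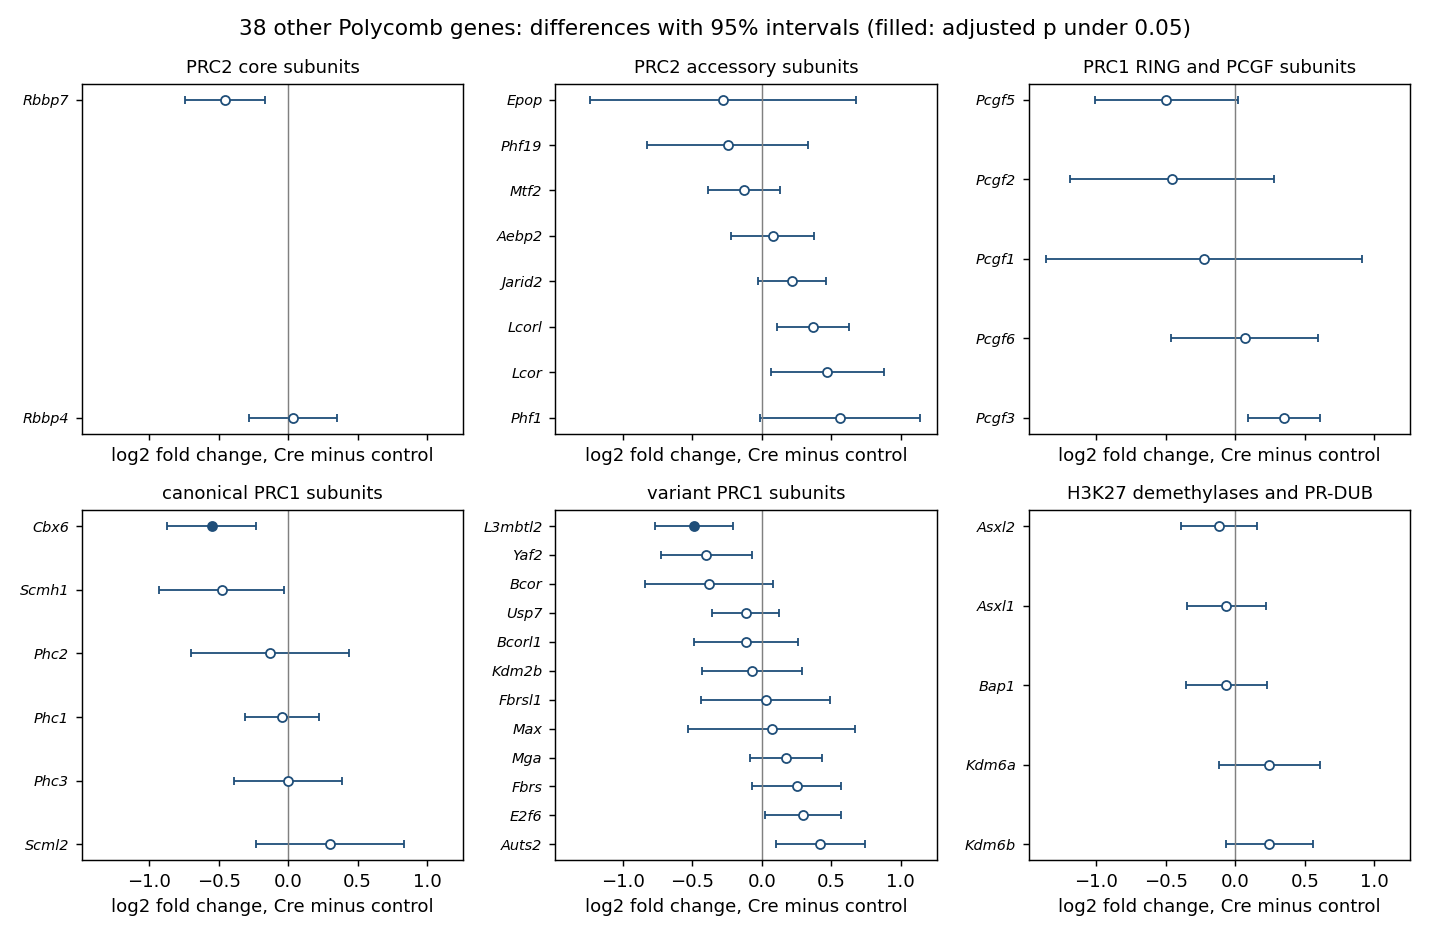
Log2 fold change (Cre minus control, horizontal axis) with its 95% interval for 38 of the 39 tested Polycomb genes outside the 10 members, in 6 lists. Filled points are past an adjusted p of 0.05, which only *Cbx6* (-0.55) and *L3mbtl2* (-0.49) are.

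Of the genes that Polycomb is known to repress, *Cdkn2a*, which BMI1 and EZH2 restrain in neural stem cells, had 754.3, 810.4 and 880.2 normalized counts in control 1, 1_1 and 2 and 1128, 829.0 and 864.9 in Cre 2, 2_2 and 3. Only Cre 2 lay above the control range, and the log2 fold change was 0.20 (SE 0.14, interval -0.12 to 0.51, adjusted p = 0.430). *Cdkn2b* next to it had 0.19 (SE 0.41, adjusted p = 0.817). Of 15 regulators of non-neural lineages, 8 had no read in any library. *T* (brachyury) was the only one of these 15 to be tested, with 23.9, 20.5 and 22.7 normalized counts in control, 29.8, 37.0 and 44.8 in the Cre libraries and a log2 fold change of 0.69 (SE 0.30, adjusted p = 0.174).

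Because *Ezh2* is a known target of E2F factors and is high in dividing cells, the members were set beside 19 cell cycle genes. All 19 had values below 0, with a median log2 fold change of -0.55, and 6 fell while 0 rose at an adjusted p under 0.05. The count of those that fell was 2 without control 1, 2 without control 2, 4 without control 1_1 or Cre 2_2, 11 without Cre 2 and 3 with control 1 and 1_1 averaged. With all libraries they were *Mcm5* (-0.84), *Mcm3* (-0.80), *Mcm7* (-0.76), *Mcm4* (-0.69) and *Mcm2* (-0.61) of the replicative helicase and *Rrm2* (-0.68) of ribonucleotide reductase. *Mcm5* went from 1038, 1040 and 966.9 normalized counts in control to 556.1, 549.2 and 595.4 in Cre 2, 2_2 and 3 (SE 0.12, interval -1.09 to -0.59, adjusted p = 0.00138). The interval of *Ezh2*, -0.30 to 0.19, lay above those of *Mcm5*, *Mcm3*, *Mcm7*, *Rrm2* and *Mcm2* and overlapped those of *Mcm4* and of all 13 cell cycle genes that did not pass. The proliferation genes *Mki67* (-0.17) and *Top2a* (-0.25) did not pass, with adjusted p-values of 0.379 and 0.258. In bulk RNA, fewer cells of a type and less RNA per cell cannot be told apart.

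**Figure D4:**
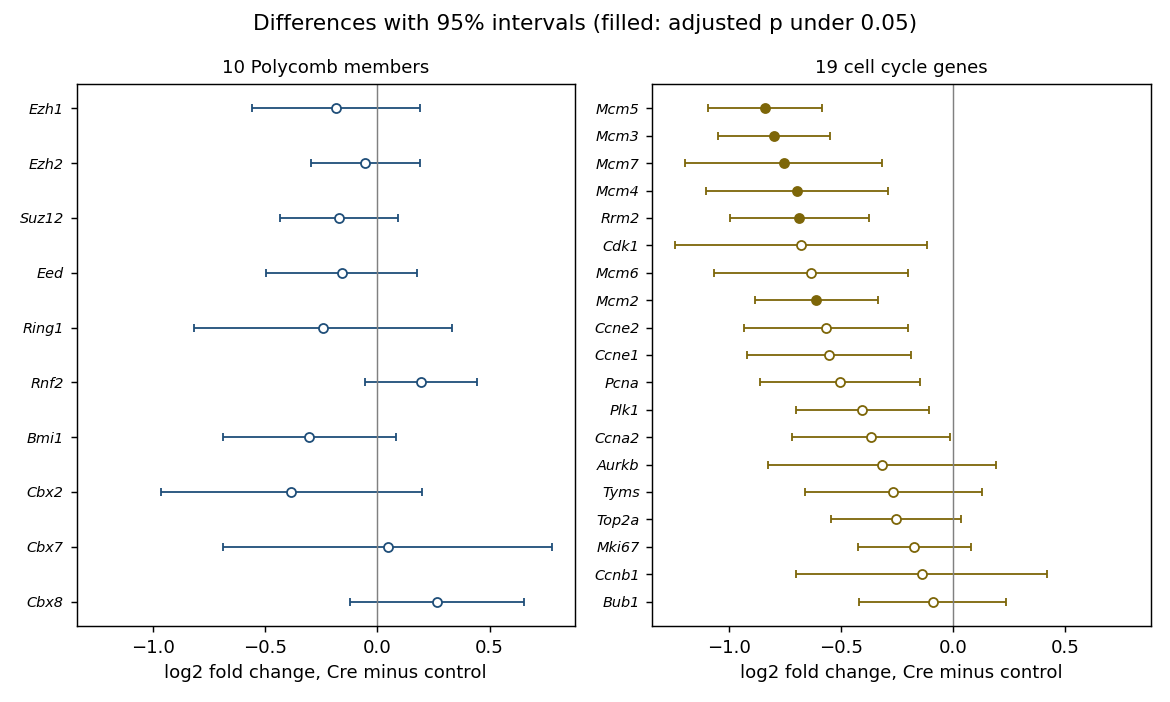
Log2 fold change (Cre minus control, horizontal axis) with its 95% interval for the 10 members (left) and 19 cell cycle genes (right), on 1 common axis. Filled points are past an adjusted p of 0.05; no member is, and 6 cell cycle genes are, with *Mcm5* at -0.84.

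The promoters were searched for 4 words of the E2F motif, TTTCCCGC, TTTCGCGC, TTTGCCGC and TTTGGCGC, on both strands in the 300 bases from 250 before to 50 after the RefSeq start (GRCm38.p6), words that overlap included. Of the 9 members with an entry, *Ezh2* and *Suz12* held such a word. So did 1 of 33 other Polycomb genes and 5 of 15 cell cycle genes, beside 2.26% of all 32851 promoters. The promoters of the members were rich in CpG, with a median of 30 CpG in 300 bases beside 7 over all promoters. This was not particular to them, as the median was 24 for the other Polycomb genes and 25 for the cell cycle genes. The stretches below show in capitals the bases of every such word within them, overlapping ones in *Mcm5*, with *Mcm5* and *Mcm7* for comparison. *Mcm7* holds a further word, TTTCCCGC in reverse, 165 bases before the start and not shown. Each stretch is read 5′ to 3′ on the strand of its gene, at chr6:47595009-47595038 (minus strand), chr11:79992876-79992905 (plus), chr8:75109345-75109374 (plus) and chr5:138171849-138171878 (minus) in this order.
Ezh2: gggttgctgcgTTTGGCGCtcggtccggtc
Suz12: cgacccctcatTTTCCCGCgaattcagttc
Mcm5: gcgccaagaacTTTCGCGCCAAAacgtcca
Mcm7: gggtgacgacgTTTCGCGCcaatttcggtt
A word in a promoter is a description and says nothing on whether a factor binds there. *Ezh2* and *Suz12* hold one and had log2 fold changes of -0.05 and -0.17, and *Mcm3*, *Mcm5* and *Mcm7* hold one and fell by 0.80, 0.84 and 0.76. *Mcm6* (-0.63, adjusted p = 0.0649) and *Cdk1* (-0.68, adjusted p = 0.122) hold such words and did not pass with limma on all libraries. *Mcm6* passed in 4 of the 16 alternatives, DESeq2 among them, and *Cdk1* in 2. *Mcm2* and *Rrm2* fell and hold none in this window.

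Some markers of other cells moved with the groups. Of 6 astrocyte markers tested 3 rose (2 to 4 when 1 library was left out), *S100b* (3.10), *Aqp4* (1.64) and *Slc1a2* (1.16). *Aldh1l1* of the same list went the other way (-1.65, adjusted p = 0.0650), with every Cre library below every control library. Without Cre 2, 1 astrocyte marker was called lower. *Gfap* had at most 12 reads in any library and was not tested. The summed normalized counts of the 7 listed markers ran from 3111 to 3411 in control and from 5590 to 6568 in the Cre-labelled libraries. Of 6 oligodendrocyte lineage markers tested 3 rose (1 without control 2), among them *Olig2*, with sums of 12488 to 14404 and of 17236 to 19639. *Nes* was the single stem cell marker of 10 that passed, and it fell by 0.85. Of 7 neuron markers tested, *Elavl4* rose and *Gap43* fell. The part of these shifts in the values of the Polycomb genes was not tested.

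The genes whose values followed *Ezh2* most closely over the 6 libraries were *Snx6* (Pearson r = 0.987), *Dcakd* (0.986) and *Map3k4* (0.980), on the log2 scale, among all tested genes. *Snx6* had 1452, 1298 and 1316 normalized counts in control and 1201, 1313 and 1364 in Cre 2, 2_2 and 3, with control 1 highest and Cre 2 lowest as for *Ezh2*. With 6 libraries and 14840 genes such a likeness is a description of the order of these libraries. Their log2 fold changes were -0.07, -0.12 and -0.15, with adjusted p-values from 0.539 to 0.762.

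Reads that overlap another gene bear on some of these values. In the GENCODE M1 annotation the exons of *Ezh2* overlap *Gm17629* and those of *Suz12* overlap *Gm16706*, in both cases on the opposite strand, and the other 8 members overlap no other gene. In GRCm38.p6 the members lie on 7 chromosomes, with *Suz12*, *Ezh1*, *Cbx2* and *Cbx8* all on chromosome 11. *Ezh2* spans chr6:47530274-47595270, *Suz12* chr11:79993106-80034123, *Eed* chr7:89954654-89980976 and *Ezh1* chr11:101191115-101226463. *Rnf2* spans chr1:151469398-151500991, *Ring1* chr17:34020792-34024680 and *Bmi1* chr2:18677018-18686629. *Cbx2* spans chr11:119023019-119031275, *Cbx8* chr11:119036303-119040913 and *Cbx7* chr15:79915804-79971143.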

How the data were processed

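RNA was sequenced after TruSeq RNA v2 preparation, which does not mark the strand. The submitters' processing notes name STAR 2.7, mm10 and DESeq2, whereas the published methods name TopHat with mm9 and mm10. The counter and annotation are not given in the sources used here. The authors deposited normalized counts per gene, a signal made by dividing read counts by 1 size factor per library, beside their own log2 fold changes, standard errors, statistics and p-values, which were not used. All values were whole multiples of 1 read within a tolerance of 0.05, so the reads were recovered. Of 53379 rows, 873 had no name and 1 was left out for a missing value.

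Genes with a mean of at least 10 were tested with limma 3.58.1 (R 4.3.3, trend) on log2(normalized count + 1), with Benjamini-Hochberg adjustment and a threshold of 0.05. The alternatives were count tests on the recovered reads (edgeR 4.0.16 and DESeq2 1.42.0), other pseudocounts (0.5 or 5), other filters (none, or a mean of at least 50), other scalings (TMM, total count), averaging of like-numbered libraries and leaving out each library. The tests were tested on simulated data. Exact tests used scipy 1.17.1 and figures matplotlib 3.10.9. Exon lengths and overlaps came from the mm9 GENCODE M1 annotation, and promoters and coordinates from RefSeq (GRCm38.p6). The members and lists were chosen with earlier results of these data known. Named were all members, *Tbl1xr1*, the 3 genes most like *Ezh2* and, of each other list, up to 5 genes past the threshold or else the most abundant gene. *Rbbp7*, *Npcd*, *Rybp*, *Mcm2* and the other genes outside this rule were named after their values were seen. Some results of these lists are not reported here.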

Additional observations from a re-analysis of the deposited data

How the results depend on the processing

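No member passed the threshold under any of the alternatives in which it was tested, 16 for 9 members and 15 for *Cbx7*, which is below a mean of 50. The count of other Polycomb genes, 2 of 39, was 0 once control 1 and 1_1 had been averaged. It ran from 0 to 6 when 1 library was left out, with 6 without Cre 2 and 0 without Cre 2_2 or any 1 control library. It was 3 with DESeq2, with the Cre libraries 2 and 2_2 averaged and with a mean of at least 50. Over all tested genes the count of 1478 was 660 after that averaging and ran from 558 (without control 1) to 2396 (without Cre 2). It was 724 without Cre 2_2, 704 without control 1_1 and 643 without control 2. Leaving out 1 library took *Cbx7* from -0.22 (without Cre 2) to 0.30 (without Cre 2_2), with -0.04 without control 1. It took *Rbbp4* from -0.082 (without Cre 2) to 0.13 (without Cre 3), with -0.07 without control 1_1, and averaging Cre 2 and 2_2 gave -0.0084 for *Rbbp4*; the cause was not tested. The median of the members was -0.17, and it was -0.05 without Cre 3 and -0.10 without control 1. Scaling by TMM or by the total count kept the median of all genes within 0.01 of 0. No paired analysis was possible because the groups share only the replicate number 2. *Cbx7* had the fewest reads of the members, 21 to 66 per library.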

Other observations

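*Asxl3*, a subunit of the Polycomb deubiquitinase, had 1, 0 and 1 reads in control 1, 1_1 and 2 and 12, 10 and 1 in Cre 2, 2_2 and 3, and was too low to be tested.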
